A study of Mus musculus with 3 samples.

Results

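The proteasome is encoded here by 48 protein-coding genes, taken by symbol as all Psma, Psmb, Psmc, Psmd, Psme, Psmf and Psmg genes with a number, of 22028 protein-coding genes and 55536 gene rows in all. Their RNA was measured by total RNA-seq, after depletion of ribosomal RNA, in the cytosolic fraction of bone marrow-derived macrophages of C57BL/6J mice, which are phagocytes grown from marrow precursors in culture. Per the labels, the cells took 100 ng/ml lipid A for 12 h, were washed and kept for 12 h without it, and were collected at 0 min of a repeat stimulation. Lipid A is the part of bacterial lipopolysaccharide that the receptor Tlr4 senses. The labels give neither sex nor age. The 3 libraries form 1 group, numbered as biological replicates 1, 2 and 3, and share a donor identifier, so a spread between them may be technical. No untreated cells were analysed here, so the values describe a state and no effect of lipid A.

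The proteasome is a barrel that degrades proteins tagged with ubiquitin. Its 20S core is built of alpha rings, which gate the entrance, and beta rings, which hold the catalytic subunits. The 19S particle binds ubiquitin, unfolds the substrate and feeds it into the core. Interferons and inflammatory signals induce alternative catalytic subunits, Psmb8, Psmb9 and Psmb10, which replace Psmb5, Psmb6 and Psmb7 in newly made cores to form the immunoproteasome. They also induce the Psme1 and Psme2 cap, and both changes favour peptides that fit major histocompatibility complex class I molecules. Macrophages present such peptides and are a known site of the immunoproteasome.

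The genes of the inducible subunits lie in 3 places of the mouse genome (GRCm38, GENCODE M21). Psmb8 (chromosome 17, 34197721 to 34201454, plus strand) and Psmb9 (chromosome 17, 34181987 to 34187764, minus strand) flank Tap1, a subunit of the transporter that carries peptides into the endoplasmic reticulum. Psmb8 starts 495 bases beyond the end of Tap1, and the gene models of Psmb9 and Tap1 overlap head to head by 212 bases. Psme1 (chromosome 14, 55578123 to 55581529, plus strand) and Psme2 (chromosome 14, 55587441 to 55591113, minus strand) are 5911 bases apart and converge. Psmb10 (chromosome 8, 105935735 to 105938444, minus strand) stands alone. The constitutive counterparts are Psmb5 (chromosome 14, 54614119 to 54618022, minus strand), Psmb6 (chromosome 11, 70525367 to 70527858, plus strand) and Psmb7 (chromosome 2, 38588036 to 38644087, minus strand).

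RefSeq promoter windows of 300 bases, 250 before and 50 after the annotated start on GRCm38.p6, were found for 40 of the 48 genes and searched on both strands, among 32851 windows in all. The core of the interferon-stimulated response element, GAAANNGAA, occurred in 7 of the 40 members and in 8.56% of all windows. The STAT site core, TTCNNNGAA, occurred in 3 members and in 8.30% of all windows, and the kappaB core, GGANNTTCC, in 5 members and in 4.26%. A member with several windows was counted once if any of them matched, whereas the percentages are of single windows. A match is a description of the letters and not a site. Among the inducible genes, Psme1 held the first motif, at bases 11 to 19 after its start, and Psmb8 the second, ending 89 bases before its start. No matches overlapped in these genes or in Psmb9. The GC box GGGCGG, chosen after the values were seen, occurred in 23 members and in 35.7% of all windows, and is shown for Psmb9 because it stands in the 225 bases between the RefSeq starts of Psmb9 and Tap1. The matches are printed 5′ to 3′ with up to 10 bases on each side and the match, or its reverse complement, in capitals, at chr17:34198088-34198116 (plus strand) for Psmb8, chr14:55578494-55578522 (plus strand) for Psme1 and chr17:34187370-34187395 (minus strand) for Psmb9.
Psmb8: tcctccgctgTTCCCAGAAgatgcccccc
Psme1: gagctgtgctTTCGCTTTCccttcccgct
Psmb9: cgcgatgatgGGGCGGggcctcagtc
The RefSeq starts of these genes are not those of the transcripts that led in TPM. The GENCODE transcript leading in TPM began 474 bases upstream of the RefSeq start in Psmb8, 434 bases upstream in Psmb9 and 134 bases upstream in Psme1. By expected counts another transcript led in Psmb8. This transcript, Psmb8-205, begins at base 34198370, downstream of the RefSeq start at 34198195.

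Cell type markers placed the libraries with macrophages. All 8 macrophage markers, among them Lyz2, Cd68 and Csf1r, reached 10 TPM in every library (a level normalised for length and library total), with summed levels of 4794 to 5711 TPM. Of 5 neutrophil markers, 2 reached 1 TPM in every library and Ly6g was at 0, with summed levels of 4.76 to 9.36 TPM. No T and NK cell, B cell or dendritic cell marker reached 1 TPM, and the 3 fibroblast and 3 erythroid markers were at 0. Replicates 1, 2 and 3 had 28981178, 53119941 and 46783133 expected counts over the gene rows.

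Nearly the whole machine was transcribed, and 4 of the 5 inducible genes headed it in TPM over all annotated transcripts. With protein-coding transcripts alone, Psme2, Psme1 and Psmb8 were still the first 3 by mean, Psmb8 with 111.1 ± 17.5 TPM, but Psmb10 at 74.4 ± 9.48 TPM lay below Psmb6 at 107.9 ± 11.0 TPM and Psmd8 at 92.4 ± 11.9 TPM (SD, n = 3). Of the 48 genes, 46 reached 1 TPM in every library and 40 reached 10 TPM, against 41.2% and 17.1% of all protein-coding genes. The levels ran from 0 to 258.8 TPM, and 15 members lay above 52.6 TPM, the 90th percentile of the 9074 protein-coding genes at 1 TPM or more. Together the members held 2442, 2367 and 2564 TPM in replicates 1, 2 and 3, which is 2458 ± 99.2 TPM (SD, n = 3). The plot by role shows each member in each library.

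**Figure D1:**
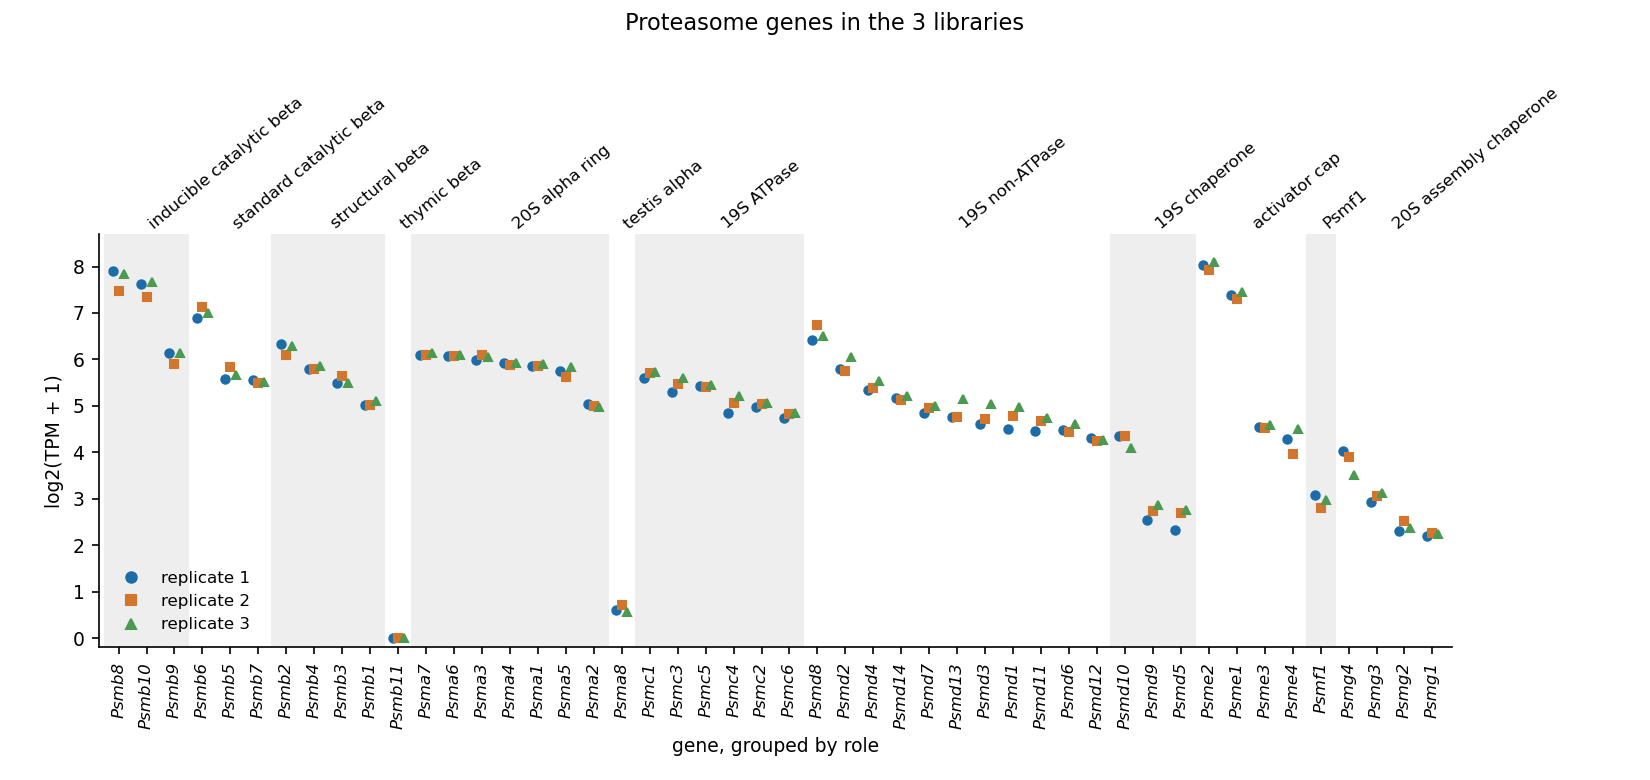
Levels of the 48 proteasome genes as log2(TPM + 1), grouped by role and ordered by mean within a role, with 1 point per library. The inducible genes Psmb8 and Psmb10 and the cap genes Psme1 and Psme2 stand above the rest, Psmd8 and Psmb6 stand above their own groups, and Psmb11 is at 0.

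The inducible catalytic genes were abundant in all 3 libraries. Psmb8, which carries the chymotrypsin-like site of the immunoproteasome, held 237.4, 176.6 and 229.3 TPM in replicates 1, 2 and 3, a mean of 214.4 ± 33.0 TPM (SD, n = 3). Psmb10, with the trypsin-like site, held 197.4, 162.2 and 203.6 TPM, a mean of 187.7 ± 22.4 TPM (SD, n = 3). Psmb9 held 69.4, 58.9 and 69.9 TPM, a mean of 66.1 ± 6.23 TPM (SD, n = 3). In each of these genes replicate 2 was the lowest in TPM. The RNA levels of the 3 genes were not equal, and Psmb8 stood 3.25-fold above Psmb9. With protein-coding transcripts alone, where Psmb9 held 60.8 ± 5.31 TPM (SD, n = 3), Psmb8 stood 1.83-fold above it. The 3 constitutive catalytic genes were also unequal, with Psmb6 2.86-fold above Psmb7 in TPM over all transcripts. Each core takes the same number of each subunit, but protein was not measured here.

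The constitutive catalytic genes were lower, with an exception. Psmb5, the chymotrypsin-like subunit of the standard core, held 47.02, 55.75 and 50.03 TPM, a mean of 50.9 ± 4.43 TPM (SD, n = 3). Psmb7, the trypsin-like subunit, held 45.8, 43.8 and 44.5 TPM, a mean of 44.7 ± 1.02 TPM (SD, n = 3). Psmb6, the caspase-like subunit, held 118.3, 138.6 and 126.3 TPM, a mean of 127.7 ± 10.2 TPM (SD, n = 3). Psmb6 exceeded the other two constitutive catalytic genes in every library, by more than their SD. The catalytic gene Psmb11, known from the cortical epithelium of the thymus, had 0 counts in all 3 libraries, which allows up to 0.104, 0.0565 and 0.0641 CPM (the count scaled to library size) in replicates 1, 2 and 3, for counting error only.

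The inducible genes exceeded the constitutive ones on the whole, but the 3 pairs of exchangeable subunits did not behave alike. Psmb8 exceeded Psmb5 by 2.04 ± 0.35 on the log2(TPM + 1) scale (SD over libraries, n = 3), with ratios of 5.05, 3.17 and 4.58 in TPM in replicates 1, 2 and 3. Psmb10 exceeded Psmb7 by 2.04 ± 0.16, with ratios of 4.31, 3.70 and 4.58. Psmb9 and Psmb6 had the opposite order, with a difference of -0.94 ± 0.25 and ratios of 0.587, 0.425 and 0.553. Each sign was the same in 3 of 3 libraries, and each mean difference was over 3 times the SD between libraries. An exact two-sided sign-flip permutation test gave p = 0.25 for each pair, which is the smallest p that this test can give with 3 libraries.

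Over the 5 inducible genes, Psme1 and Psme2 included, the mean log2(TPM + 1) was 7.35, against 6.07 over Psmb5, Psmb6 and Psmb7. The difference was 1.41, 1.05 and 1.38 in replicates 1, 2 and 3, with a mean of 1.28 ± 0.20 (SD, n = 3; exact two-sided sign-flip permutation test, p = 0.25, the smallest possible). In TPM, the geometric mean of the inducible genes was 2.68, 2.08 and 2.64 times that of the constitutive genes. Psmb8, Psmb9 and Psmb10 together held 70.5%, 62.5% and 69.5% of the TPM of the 6 catalytic genes, a mean of 67.5 ± 4.33% (SD, n = 3). Replicate 2 was the lowest in all of these measures, and it was highest in Psmb5 and Psmb6. A ratio within a library does not depend on the scaling factor of that library.

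**Figure D2:**
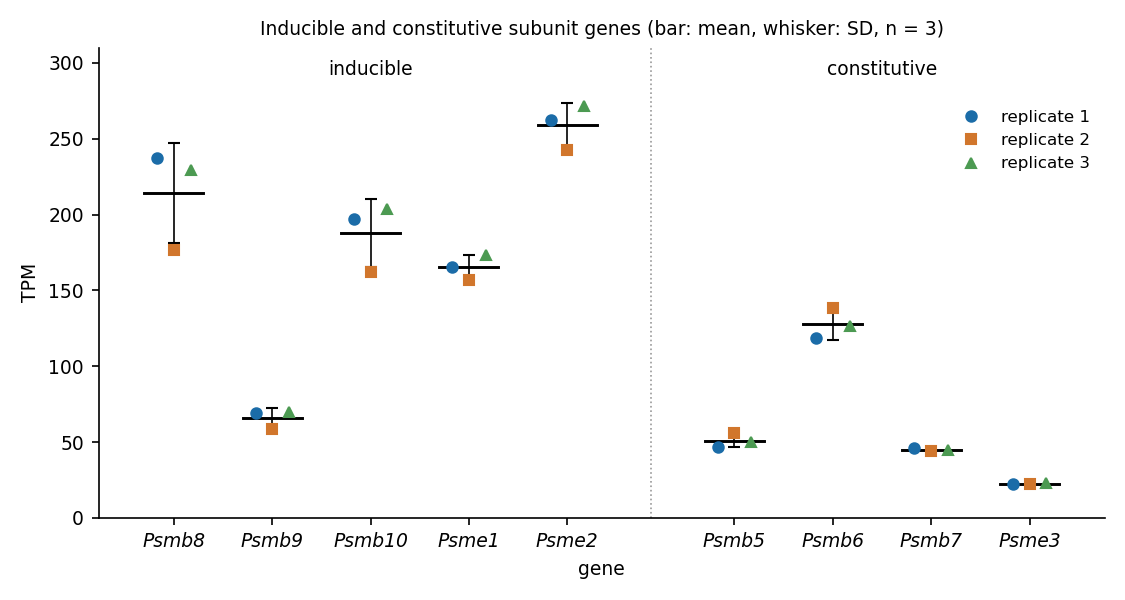
TPM of the inducible genes (left) and of constitutive genes (right), with 1 point per library, the mean as a bar and the SD as a whisker (n = 3). Psmb8, Psmb10, Psme1 and Psme2 lie at 156.8 TPM or more in every library, above all 4 constitutive genes, whereas Psmb9 at 66.1 TPM lies below Psmb6 at 127.7 TPM.

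The sign of each pair was the same with coding transcripts alone and with read-derived values, but the size depended on which transcripts were counted. With protein-coding transcripts alone, Psmb8 exceeded Psmb5 by 1.10 ± 0.36 and Psmb10 exceeded Psmb7 by 0.72 ± 0.18 on the log2(TPM + 1) scale, while Psmb9 minus Psmb6 was -0.82 ± 0.27 (SD, n = 3). The 5 inducible genes, with Psme1 and Psme2 included, then exceeded the 3 constitutive catalytic genes by 0.80 ± 0.23 (SD, n = 3). Without the cap genes, the inducible share of catalytic TPM was 58.3%, 49.2% and 56.5% in replicates 1, 2 and 3. Its mean was 54.7 ± 4.84% (SD, n = 3). In replicate 2, coding transcripts of Psmb8, Psmb9 and Psmb10 summed to 210.19 TPM, against 217.45 TPM for Psmb5, Psmb6 and Psmb7. The order of these sums was thus reversed in that library, at near parity. With values made directly from reads, the share was 66.6 ± 4.39% (SD, n = 3).

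**Figure D3:**
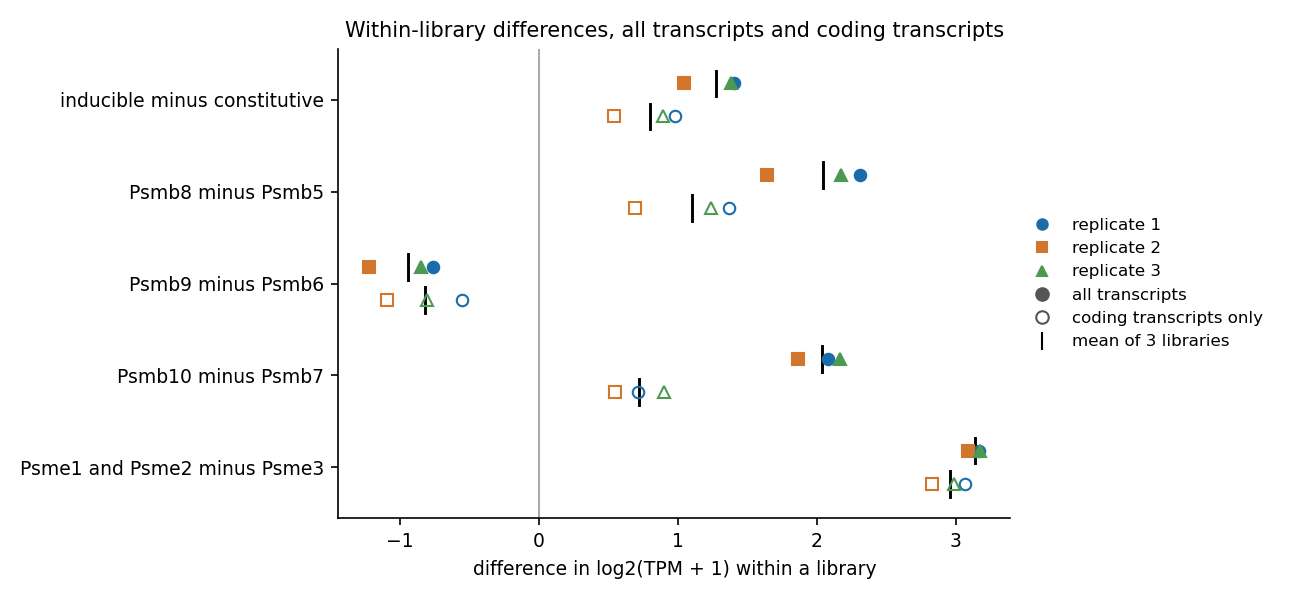
Differences within each library on the log2(TPM + 1) scale, for all annotated transcripts (filled) and protein-coding transcripts alone (open), with the mean of 3 libraries as a black line. The signs are the same in all libraries and for both sets of transcripts, and the coding values lie nearer 0, most of all for Psmb10 minus Psmb7 at 0.72 against 2.04.

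The gap was widest for the pairs with Psmb8 and Psmb10, since protein-coding transcripts held 51.8 ± 0.28% of the TPM of Psmb8 and 39.6 ± 1.21% of that of Psmb10 (SD, n = 3). Of the TPM of Psmb8, transcript Psmb8-203, which is coding, held 50.2 ± 0.34% and Psmb8-205, with a retained intron, held 47.0 ± 0.83% (SD, n = 3). Of the TPM of Psmb10, Psmb10-203, a processed transcript of 426 bases, held 47.1 ± 4.14%, the coding transcript Psmb10-201, of 1311 bases, 39.6 ± 1.21%, and Psmb10-205, with a retained intron, 11.4 ± 5.27% (SD, n = 3). The annotated models share exons, so the split of reads between them is an estimate, and whether the introns themselves were covered was not tested.

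In Psmb10 the order of the transcripts depended on the unit. TPM divides reads by an effective length, which was 180 bases for Psmb10-203 and 1063 bases for Psmb10-201 in replicate 1. By expected counts, which are not divided by length, Psmb10-201 held 74.5%, 75.3% and 76.0% of the reads of the gene, and Psmb10-203 held 13.99%, 18.19% and 16.66%. In Psmb8 the counts ran the other way, since Psmb8-205 is the longer model, of 1234 bases against 840 bases for Psmb8-203. Psmb8-205 held 57.9 ± 1.03% and Psmb8-203 37.5 ± 0.44% of its expected counts (SD, n = 3).

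The other catalytic and cap genes lay mostly on coding transcripts. Psmb5-201 held 98.8 ± 0.42% of the TPM of Psmb5 and Psmb7-201 held 99.6 ± 0.52% of that of Psmb7 (SD, n = 3). Psmb6-201 held 84.4 ± 2.79%, with 13.9 ± 3.39% on Psmb6-202, a retained intron model. Psme1-208 held 90.3 ± 3.02% of the TPM of Psme1. In Psme2, the coding transcripts Psme2-208 and Psme2-201 held 58.9 ± 1.77% and 24.8 ± 8.85%, and Psme2-207, with a retained intron, 14.2 ± 6.57% (SD, n = 3).

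In Psmb9 the same coding transcript led in all 3 libraries, with a share that differed between them. Psmb9-204, of 1352 bases, held 86.8%, 70.0% and 63.1% of its TPM in replicates 1, 2 and 3. Psmb9-202, a model of 433 bases, held 6.29%, 22.4% and 25.0%. Replicate 1 stood apart from the other two in both. By expected counts the share of Psmb9-202 was 1.15%, 5.33% and 5.86%, and that of Psmb9-204 was 93.4%, 88.5% and 80.2%. Retained intron transcripts of Psmb9 held 2.76%, 1.73% and 8.62% of its expected counts, so replicate 3 stood apart there.

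**Figure D4:**
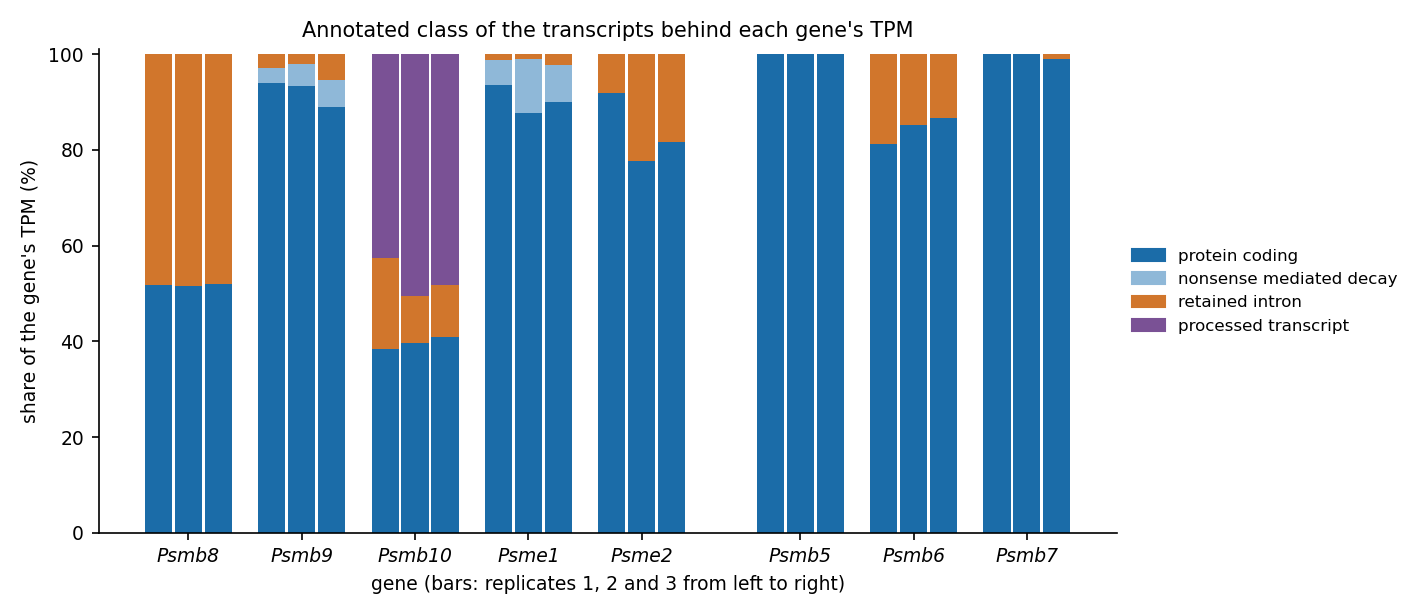
Share of each gene's TPM by the annotated class of its transcripts, in percent, with 1 bar per library for the 5 inducible genes (left) and Psmb5, Psmb6 and Psmb7 (right). Coding transcripts hold 51.5 to 52.1% of Psmb8 and 38.4 to 40.8% of Psmb10 in the 3 libraries, and over 98% of Psmb5 and Psmb7.

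Across the 47 members with reads, the leading transcript was protein-coding in 46, Psmb10 being the exception, and the same transcript led in the read-derived values in 45. It held 90% or more of the TPM in 28. The median coding share was 98.4%, and 8 members lay below 90%. Besides Psmb8, Psmb10, Psmb6 and Psme2 these were Psma3 at 51.4%, Psmd13 at 60.7%, Psma8 at 80.4% and Psmc6 at 85.1%. The coding share of Psmc6 was 92.5%, 89.3% and 74.1% in replicates 1, 2 and 3. Its retained intron share was 0.58%, 6.39% and 17.9%. By expected counts its coding share was 96.1 ± 2.73% (SD, n = 3). For Psma8 the coding share of TPM was 100%, 70.4% and 70.0%, on 37, 71 and 36 expected counts. In Psma3, an alpha ring subunit, 27.6 ± 2.19% of TPM lay on retained intron transcripts and 21.1 ± 3.33% on transcripts annotated for nonsense-mediated decay (SD, n = 3).

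The activator caps split into an abundant pair and a low pair. Psme2, the beta subunit of the inducible cap, was the most abundant member, with 262.5, 242.5 and 271.4 TPM and a mean of 258.8 ± 14.8 TPM (SD, n = 3). Psme1, its alpha subunit, held 165.6, 156.8 and 173.4 TPM, a mean of 165.3 ± 8.32 TPM. Psme3, which forms the related nuclear cap, held 22.3, 22.1 and 23.1 TPM, a mean of 22.5 ± 0.56 TPM. Psme4, the large single-chain activator, held 18.5, 14.5 and 21.7 TPM, a mean of 18.2 ± 3.56 TPM (SD, n = 3). Psme1 and Psme2 exceeded Psme3 by 3.14 ± 0.05 on the log2(TPM + 1) scale, in 3 of 3 libraries (SD, n = 3; exact two-sided sign-flip permutation test, p = 0.25, the smallest possible). Psme1 stood below Psme2, with ratios of 0.631, 0.646 and 0.639 in TPM in replicates 1, 2 and 3 and of 0.643, 0.729 and 0.704 with protein-coding transcripts alone.

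The reads of Psme2 are partly uncertain because a copy without introns, Psme2b (chromosome 11, 48945354 to 48946190, minus strand), is nearly identical. It is annotated as protein-coding but its symbol falls outside the rule. Psme2b was listed at 52.2, 26.2 and 43.6 TPM in replicates 1, 2 and 3, with 1482, 1555 and 1891 expected counts. Of 794 aligned bases of Psme2-208, 789 were identical to Psme2b-201, which is 99.4%. The 5 differences, counted from the 5′ end of Psme2-208 with its base first, are C510T, A567G, C687T, C717T and C741T, and all are in coding sequence. The stretch with the last 3 of them is shown because only these 5 positions tell the aligned bases apart. It is written 5′ to 3′ with the differing bases in capitals, from GENCODE M21 on GRCm38, bases 679 to 749 of Psme2-208 (exons within chr14:55588041-55588249, minus strand) and bases 553 to 623 of Psme2b-201 (chr11:48945568-48945638, minus strand).
Psme2-208: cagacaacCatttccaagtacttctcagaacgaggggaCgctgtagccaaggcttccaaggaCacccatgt
Psme2b-201: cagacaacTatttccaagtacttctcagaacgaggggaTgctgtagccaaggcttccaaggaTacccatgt
With Psme2b added to Psme2, an alternative chosen after seeing the data, the 2 cap genes exceeded Psme3 by 3.25 ± 0.08 (SD, n = 3), and Psme1 stood at 0.526, 0.583 and 0.550 of the sum in replicates 1, 2 and 3. The counts of 12 of the 48 members were not whole numbers within 0.005, which marks reads shared with another gene. Psme2, Psmb9 and the constitutive genes Psmb5 and Psmb7 were among these 12. The other 36 had whole counts.

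Other overlaps bear on single members. The gene model of Tap1 overlaps Psmb9, and Tap1 held 111.0 ± 20.8 TPM (SD, n = 3). An antisense gene, Gm20496, overlaps Psmb8 by 2139 bases, and another, Gm16156, spans Psmb10. Gm20496 was listed at 0 TPM in all 3 libraries and Gm16156 at 0.03 TPM or less. Other overlapping genes were expressed. Nek6, at a mean of 8.68 TPM, overlaps the constitutive gene Psmb7 by 6571 bases on the opposite strand. Slc39a13, at a mean of 11.8 TPM, overlaps Psmc3 by 4579 bases, also on the opposite strand. The sources do not state if strand entered the counting, so reads of such pairs cannot be assigned with certainty.

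The alpha ring and structural beta genes of the standard 20S core lay between 31.2 and 74.5 TPM by mean. The 7 alpha ring genes, which form the gate, had a median of 59.0 ± 0.98 TPM (SD of the library medians, n = 3), with Psma7 highest at 68.4 ± 1.16 TPM and Psma2 lowest at 31.2 ± 0.72 TPM (SD, n = 3). Psma7 held 67.7, 67.7 and 69.7 TPM in replicates 1, 2 and 3, and Psma2 held 31.9, 31.2 and 30.5 TPM. The 4 structural beta genes had a median of 50.6 ± 1.29 TPM, from 32.2 ± 1.30 TPM for Psmb1 to 74.5 ± 6.77 TPM for Psmb2. Within both groups the highest member stood 2.19-fold and 2.32-fold above the lowest. Psma8, an alpha subunit known from testis, held 0.53, 0.63 and 0.47 TPM with 37, 71 and 36 expected counts.

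The 19S particle was lower than the core. Its 6 ATPase genes, whose products unfold the substrate, had a median of 37.1 ± 2.55 TPM, from 26.9 ± 1.18 TPM for Psmc6 to 50.3 ± 2.66 TPM for Psmc1 (SD, n = 3). Its 11 Psmd subunit genes had a median of 28.8 ± 3.39 TPM and a wider range. Psmd12, a lid subunit, was lowest at 18.8, 17.8 and 18.1 TPM, and Psmd8, also a lid subunit, highest at 84.1, 106.1 and 89.1 TPM. Psmd2, a large base subunit, held 57.6 ± 6.52 TPM, and Psmd14, the deubiquitinase that removes the ubiquitin chain, 35.1 ± 1.15 TPM (SD, n = 3). The 14 standard 20S genes had a mean log2(TPM + 1) of 5.83, against 5.13 for the 17 Psmc and Psmd subunit genes. Subunits of the 19S particle with other symbols were not included. The difference was 0.70 ± 0.08 and positive in 3 of 3 libraries (SD, n = 3; exact two-sided sign-flip permutation test, p = 0.25, the smallest possible).

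Most assembly factors were low. The 4 genes of the 20S assembly chaperones, which dimerise and guide the alpha ring, had a median of 5.76 ± 0.42 TPM. Psmg1 held 3.60, 3.79 and 3.70 TPM, with 138, 301 and 215 expected counts, and Psmg4 held 15.3, 13.8 and 10.5 TPM. The 19S base chaperones had a median of 5.59 ± 0.75 TPM, with Psmd5 at 5.10 ± 0.92 TPM and Psmd10 at 18.3 ± 1.92 TPM. Psmf1, a regulator that binds the 20S core, held 6.80 ± 0.75 TPM (SD, n = 3).

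Other genes of the pathway were examined as 2 lists. Of 18 accessory genes, 17 were found by symbol, and Paaf1 was not matched. All 17 reached 1 TPM in every library and 12 reached 10 TPM, with a median of 20.7 TPM, against 8.78 TPM for the 9074 protein-coding genes at 1 TPM or more. Among the highest were the polyubiquitin gene Ubb at 319.6 ± 39.5 TPM and the maturation factor Pomp, which is needed to complete a core, at 89.8 ± 3.85 TPM. The lowest were the shuttle genes Ubqln2 and Ubqln4, at 6.73 ± 0.62 and 7.60 ± 0.58 TPM, and Ngly1, an enzyme that processes the proteasome gene activator Nfe2l1, at 7.09 ± 0.72 TPM (SD, n = 3).

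The 8 interferon-linked partners, which regulate the inducible genes or handle the peptides they make, all reached 10 TPM in every library, with a median of 85.6 TPM. B2m, the light chain of class I molecules, was highest at 3362 ± 554 TPM, and the class I loading factor gene Tapbp held 379.7 ± 73.4 TPM. The lowest were Erap1, a peptide trimming enzyme, at 22.1 ± 2.71 TPM, Nlrc5, an activator of class I genes, at 32.8 ± 11.7 TPM, and Tap2, the partner of Tap1, at 43.8 ± 9.49 TPM (SD, n = 3).

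With 1 group, the remaining comparison is between libraries. The expected counts of each gene with a mean of 10 or more were tested for equal levels in the 3 libraries with a chi-square test, adjusted by the Benjamini-Hochberg method over 13636 genes, and a gene was called at adjusted p under 0.05 and a ratio of at least 2 between the highest and the lowest library. No member was called among the 47 tested, while 16.2% of all genes and 8.12% of protein-coding genes were. These shares were not matched for level. Of the 48 members, 40 lay above 8.78 TPM, the median of the protein-coding genes at 1 TPM or more. At a ratio of at least 1.5, 4 members were called, against 27.2% of all genes and 19.7% of protein-coding genes. At any ratio 46 of the 47 had an adjusted p under 0.05, and 46 had an unadjusted p under 0.05, against 75.6% of all genes and 75.9% of protein-coding genes by the adjusted p. This test covers counting error alone, and depth makes small differences pass it. The median ratio was 1.23 for the members and 1.27 for protein-coding genes, and the median coefficient of variation was 10.6% and 12.4%.

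The 6 members with the largest ratios were low in expression or peripheral to the core, except Psmd8 and Psmc6. In CPM scaled with TMM, a method that centres most genes, Psma8 held 1.32, 1.34 and 0.74 CPM in replicates 1, 2 and 3, a ratio of 1.81. Psmg4 held 7.13, 7.63 and 4.50 CPM, a ratio of 1.69. Psmd8 held 165.5, 226.6 and 149.4 CPM, a ratio of 1.52. Psmd10 held 39.7, 42.5 and 28.1 CPM, also a ratio of 1.52. These first 4 are the members called at 1.5. Psmg2 and Psmc6 followed at 1.44 and 1.43. All 6 were highest in replicate 2 and lowest in replicate 3 in TMM-scaled CPM. Of the protein-coding genes, 39.2% were highest in replicate 2 and 43.2% lowest in replicate 3 on that scale.

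Which library was highest differed between the inducible and the standard genes, and depended on the scaling. In TMM-scaled CPM the 5 inducible genes were all highest in replicate 1, and Psmb5, Psmb6 and Psmb7 were all highest in replicate 2. Of 11540 protein-coding genes with a mean of 10 or more counts, 33.2% were highest in replicate 1, 39.2% in replicate 2 and 27.7% in replicate 3 on that scale. In TPM 4 of the 5 inducible genes were highest in replicate 3, as were 65.4% of the protein-coding genes. Of the 14 standard 20S genes, 12 were highest in replicate 2 and 14 lowest in replicate 3 in TMM-scaled CPM. In TPM, 6 of them were highest and 2 lowest in replicate 3. Of the protein-coding genes, 43.2% were lowest in replicate 3 in TMM-scaled CPM and 9.89% in TPM. Of the 17 Psmc and Psmd subunit genes of the 19S particle, 16 were highest in replicate 2 in TMM-scaled CPM. In TPM, 15 of the 17 were highest in replicate 3. With TPM rescaled to the protein-coding genes, 12 of the 14 standard 20S genes and 14 of the 17 of the 19S particle were highest in replicate 2, against 33.9% of the protein-coding genes, and the 5 inducible genes were split 2, 2 and 1 over replicates 1, 2 and 3. TPM shifted the median protein-coding gene by -0.05, -0.12 and 0.16 in log2 in replicates 1, 2 and 3, relative to its mean over the libraries, over 11487 genes. The ratio of the geometric means of inducible and constitutive genes within a library was lowest in replicate 2 both in TPM, at 2.08, and in TMM-scaled CPM, which is not divided by length, at 2.95, 2.15 and 2.74 in replicates 1, 2 and 3. In bulk RNA, fewer cells of a type and less RNA per cell cannot be told apart.

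**Figure D5:**
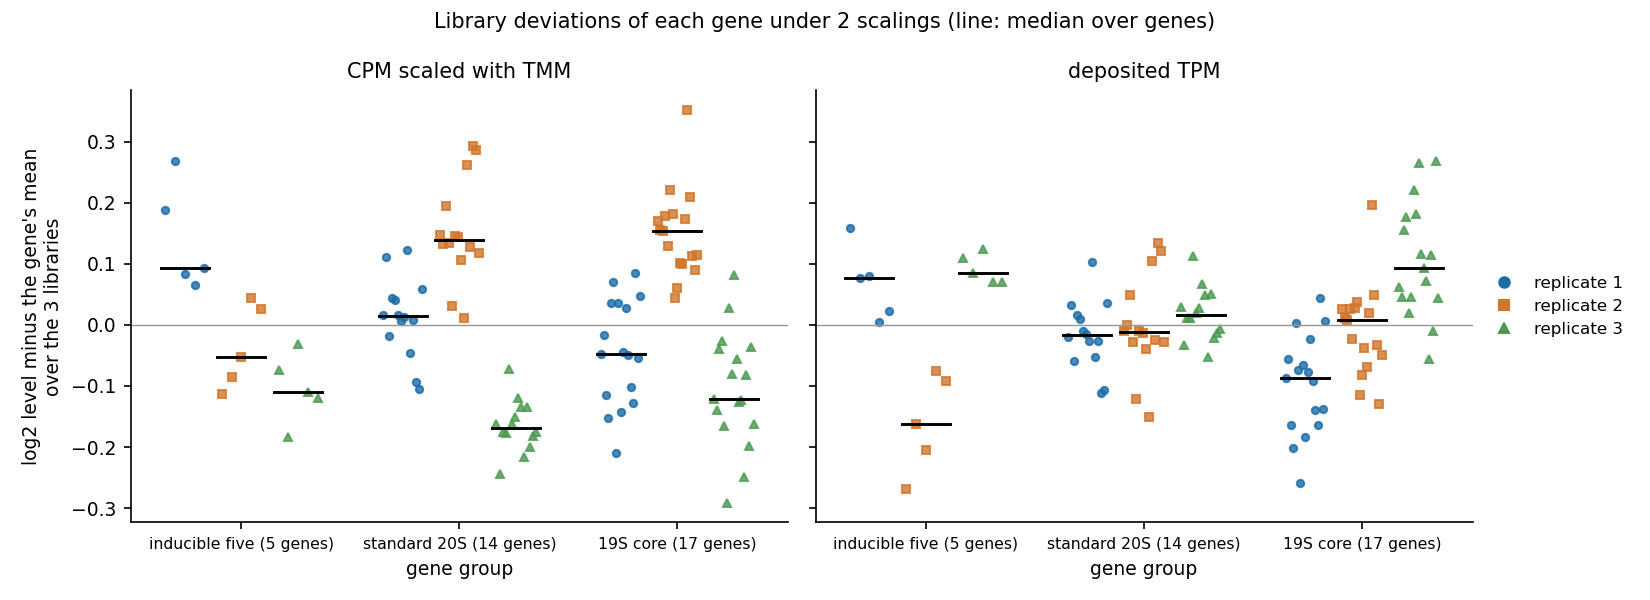
Level of each gene in each library in log2, minus the gene's mean over the 3 libraries, in TMM-scaled CPM (left) and deposited TPM (right). Shown are the 5 inducible genes, the 14 standard 20S genes and the 17 Psmc and Psmd subunit genes of the 19S particle, with medians as black lines. The 5 inducible genes are highest in replicate 1 in CPM and 4 of them in replicate 3 in TPM, and most 19S genes move to replicate 3 in TPM.

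Of the 8 interferon-linked partners, 3 were called at a ratio of at least 1.5, against 19.7% of protein-coding genes. Among them were B2m at 1.59, highest in replicate 1 in TMM-scaled CPM as in TPM, and Nlrc5 at 1.70, highest in replicate 3 under both. Nlrc5 held 34.6, 20.4 and 43.5 TPM in replicates 1, 2 and 3. It was thus lowest in replicate 2 in TPM, as were the 5 inducible proteasome genes and 54.3% of the protein-coding genes. B2m differed from these, with 3957, 3269 and 2861 TPM, and was lowest in replicate 3 in TMM-scaled CPM too. None of the 8 was called at a ratio of 2, and none of the 17 accessory genes at 2 or 1.5. Of the protein-coding genes, 8.12% were called at 2 and 19.7% at 1.5. The part of the interferon-linked genes in the order of the libraries was not tested.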

How the data were processed

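Members and lists were chosen with earlier results of these data known. Per the deposited read-me text, reads aligned to mm10 with annotation M21 gave the gene and transcript tables, and a second transcript table came from unaligned reads. Names of aligner and quantifier, and any use of strand, were not given in the sources used here. Expected counts, as deposited, estimate the reads of a gene or transcript and divide shared reads. The deposited TPM values and, as an alternative, the deposited FPKM values are normalised for length and library total by the authors. The deposited percent values give each transcript's share of its gene's TPM. All 55536 gene identifiers matched GENCODE M21. A further 26345 rows that name no gene (0.418%, 0.248% and 0.165% of counts in replicates 1, 2 and 3) were left out.

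Levels were compared within libraries on log2(TPM + 1), a pseudocount of 1, with exact sign-flip tests over 3 libraries. Rounded expected counts were scaled with TMM (edgeR 4.0.16, R 4.3.3), with 0.5 counts added for ratios. DESeq2 1.42.0 size factors were an alternative. The chi-square test was tested on simulated data. Promoter sequences are RefSeq's (GRCm38.p6). Python 3.11.15, numpy 2.4.6, pandas 2.3.3, scipy 1.17.1 and matplotlib 3.10.9 were used.

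The text names all members by role, with the highest and lowest of each role, Psmb5 to Psmb10 and Psme1 to Psme3 in full, transcripts of these with 10% or more of the TPM, the 6 largest ratios between libraries, and the 3 highest and lowest genes of each list, of which 2 are not reported here. Psmd2, Psmd14, Psma3, Psmd13 and Psme2b lie outside this rule and were picked once values were known.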

Additional observations from a re-analysis of the deposited data

How the results depend on the processing

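The differences between gene groups kept their sign in 3 of 3 libraries under other pseudocounts, read-derived values, FPKM, coding transcripts alone and posterior mean TPM, and in both remaining libraries with each replicate left out. Medians over members, run for inducible minus constitutive and 20S minus 19S, kept it too. Inducible minus constitutive ranged from 0.80 (coding transcripts alone) to 1.86 (medians over members), Psmb8 minus Psmb5 from 1.10 to 2.24, Psmb10 minus Psmb7 from 0.72 to 2.13, and Psmb9 minus Psmb6 from -1.03 to -0.80. The inducible share of catalytic TPM was 54.7% with coding transcripts alone, with 49.2% in replicate 2. It was 66.0 to 70.0% over all transcripts with a replicate left out. The number of members that differed between libraries became 4 at a ratio of at least 1.5 and 46 at any ratio. It was 0 with DESeq2 size factors, other count filters, protein-coding genes only and each replicate left out. Of the members, 40 to 47 passed under the other thresholds and units for expression. No comparison of treatments, paired or not, was possible because the series holds 1 group. The differences between gene groups were taken within each library. The sign-flip test cannot reach 0.05 with 3 libraries, and Psma8 and the assembly chaperones rest on few reads.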
